A study of Homo sapiens with 6 samples.

Results

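The regions described here are narrow RIP-seq peaks at the 5′ ends of protein-coding genes in HEK293T cells that overexpressed SNRPD2. In RIP-seq, RNA that comes down with an immunoprecipitated protein is sequenced, and SNRPD2 encodes SmD2, a subunit of the Sm ring of spliceosomal snRNPs. HEK293T is an established human embryonic kidney line. The labels gave 3 samples with the genotype SNRPD2OE and 3 with the genotype Ctrl, and peak lists of the 3 SNRPD2OE samples were analysed. Without the control samples, which were not analysed here, RNA bound to SmD2 cannot be told apart from RNA that is merely abundant, and neither the antibody nor the vector is given in the sources used here. Separate cultures are not stated for the 3 replicates, so their spread may be technical only. The test used below gives the same p-value whenever all 3 samples have the same sign, so its p-values do not measure that spread.

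A peak was taken when it was at most 1000 bp wide and its summit lay in the span of exactly 1 RefSeq gene, protein-coding and at least 5 kb long, within 500 bp of that gene's 5′ end on its own strand. This gave 1561, 3042 and 1246 peaks in replicates 1, 2 and 3, of 30111, 160931 and 65097 peaks in all, or 5849 of 256139. Of the 16841 protein-coding genes of that length, 13504 had a strand in the sequence table used. The remaining genes, 590 on chromosome 8 and 2747 elsewhere, were not analysed here. In 11264 of the genes, at least 1 base of the first 500 bp lay in no other gene span. Members fell in 1517, 2776 and 1193 genes, which is 13.5%, 24.6% and 10.6% of those 11264 genes. A gene had several members in 44, 262 and 52 cases.

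The 5′ end of a protein-coding gene is where RNA polymerase II starts transcription. The first bases of the transcript receive a cap, and the first exon usually ends at a 5′ splice site that the U1 snRNP recognises. U1 is also known to suppress premature cleavage and polyadenylation of nascent transcripts near gene starts. The Sm ring surrounds U1, U2, U4 and U5 snRNAs, so an Sm protein can be near pre-mRNA at either end of an intron.

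The lists differed in peak width and in reads per peak, and the cause was not tested. Nearly all peaks of replicates 1 and 2 were narrow (99.99% and 100%), whereas 24.3% of those of replicate 3 were at most 1000 bp wide. The number of reads at a summit was recovered from the deposited fold and −log10 p-value. Summits with 1 read made up 71.4% and 55.0% of the whole lists of replicates 2 and 3 and were not present in that of replicate 1. Sequencing depth is unknown, and duplicate reads cannot be told from independent molecules. At least 10 reads lay on a peak of 3, 4 and 3 of 14 genes chosen as expressed in this line, IGF2BP1, KRT18 and VIM among them in each list. None of the 20 markers of blood, liver, muscle and differentiated kidney reached 10 reads in any list. Peaks of any depth did not separate them in replicate 2. There 3 of 5 blood, 4 of 5 liver, 3 of 5 muscle and 4 of 5 differentiated kidney markers had a peak, against 13 of the 14 genes expressed in the line. In replicates 1 and 3, 9 and 6 of those 14 genes had a peak, and of the 20 markers only 1 muscle marker, in replicate 1.

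Promoter sequence is shown for 6 genes whose 5′ summits are among the strongest described below. Each sequence is from RefSeq (GRCh38.p14), 5′ to 3′ on the gene's strand, with 100 bases upstream in lower case and the first 30 bases of the gene in capitals. The windows are chr22:36387938-36388067 (minus strand) for MYH9, chr17:56961021-56961150 (minus strand) for COIL, chr19:49085351-49085480 (plus strand) for SNRNP70, chr17:68035635-68035764 (plus strand) for KPNA2, chr17:67717836-67717965 (plus strand) for NOL11 and chr1:32291983-32292112 (plus strand) for HDAC1.
MYH9: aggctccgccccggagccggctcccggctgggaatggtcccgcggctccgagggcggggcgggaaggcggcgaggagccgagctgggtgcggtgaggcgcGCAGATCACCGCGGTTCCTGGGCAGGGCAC
COIL: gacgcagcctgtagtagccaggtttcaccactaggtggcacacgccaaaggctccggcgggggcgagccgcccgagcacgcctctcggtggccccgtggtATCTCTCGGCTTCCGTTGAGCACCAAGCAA
SNRNP70: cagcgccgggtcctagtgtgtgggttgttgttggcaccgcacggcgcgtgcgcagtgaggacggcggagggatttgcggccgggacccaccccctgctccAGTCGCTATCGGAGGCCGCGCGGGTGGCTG
KPNA2: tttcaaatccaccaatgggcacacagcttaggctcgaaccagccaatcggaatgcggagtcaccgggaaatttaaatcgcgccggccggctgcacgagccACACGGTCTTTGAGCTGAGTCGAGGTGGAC
NOL11: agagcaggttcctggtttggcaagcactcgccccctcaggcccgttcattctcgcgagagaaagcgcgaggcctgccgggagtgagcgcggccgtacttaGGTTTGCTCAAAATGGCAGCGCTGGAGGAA
HDAC1: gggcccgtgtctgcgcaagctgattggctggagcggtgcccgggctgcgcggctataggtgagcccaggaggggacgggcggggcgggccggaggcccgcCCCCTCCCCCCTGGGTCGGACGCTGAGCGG
The GC content of the 6 windows, in the order shown, was 77.7%, 66.2%, 71.5%, 56.9%, 61.5% and 77.7%, and they hold 17, 12, 16, 11, 11 and 14 CpG. GET3, another of the strongest genes, had 53.8% and 4 CpG over the same window. Its summits lay 469, 444 and 469 bp from that 5′ end and nearer to a further listed start inside the gene. The window is thus not the sequence next to them, and GET3 allows no reading on GC content and summit strength.

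Summits were denser in the first 500 bp of genes than in any other window of the same genes. Their density was 287.5, 560.4 and 229.5 per Mb in the first 500 bp in replicates 1, 2 and 3, counted over bases in exactly 1 gene span. The mean over the gene interiors, from 500 bp after the 5′ end to 500 bp before the 3′ end, was 43.2, 140 and 24.4 per Mb. In all 3 lists the first 500 bp was the denser by 6.66, 4.01 and 9.40-fold, a mean of 6.69 ± 2.69 (SD, n = 3). As a geometric mean the fold was 6.31, against 13.0 with interiors weighted by length, 14.3 for peaks with a −log10 q of at least 1.3, 9.87 with windows of 250 bp and 4.01 with windows of 1000 bp. The direction was the same under these settings and the size was not. The exact two-sided sign-flip permutation test over the 3 samples gave p = 0.25, the smallest that 3 samples allow, here and for every other tested difference below.

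The drop began within the gene. The next 500 bp had 62.3, 220 and 38.9 summits per Mb, so the first 500 bp was 4.62, 2.55 and 5.90-fold denser (mean 4.36 ± 1.69). Against 500 bp around the gene's midpoint, with 41.3, 128 and 24.4 per Mb, the folds were 6.96, 4.38 and 9.41 (mean 6.92 ± 2.52). Gene 3′ ends came nearest to 5′ ends. The last 500 bp had 111, 388 and 86.7 summits per Mb, and the 5′ end exceeded it 2.60, 1.44 and 2.65-fold (mean 2.23 ± 0.682). In each list the first window was followed by the last, the next and then the middle one (the plot of density by window).

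**Figure D1:**
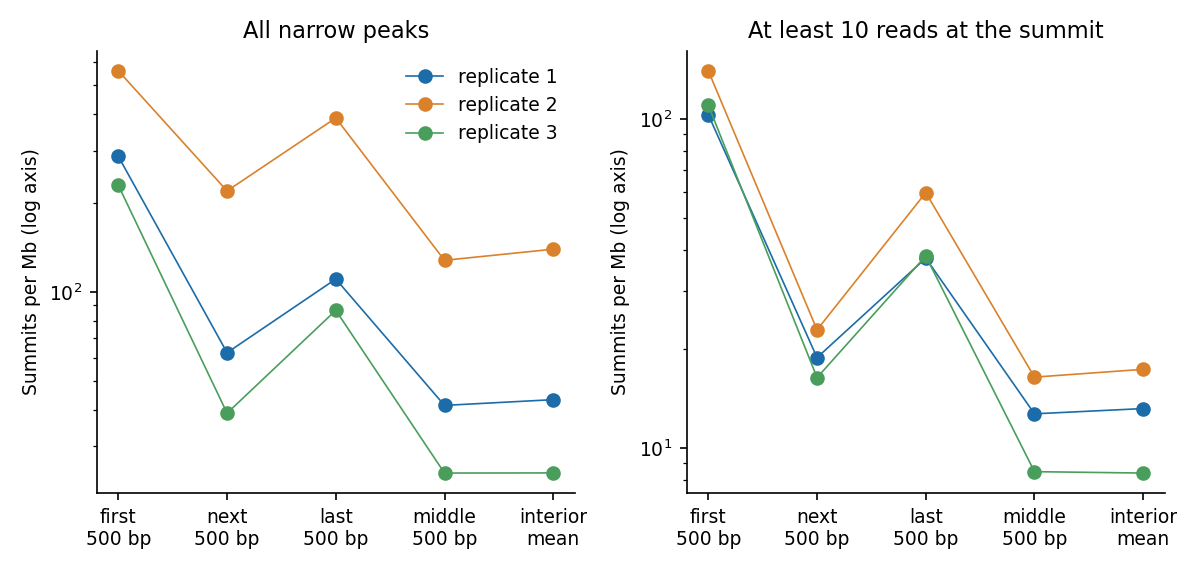
Summits per Mb (log axis) in the first, next, last and middle 500 bp of the genes and as the mean over their interiors, for all narrow peaks and for those with at least 10 reads, 1 line per replicate. The first 500 bp is the highest point of each line in both panels, at 287.5, 560.4 and 229.5 per Mb for all narrow peaks.

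Both folds were larger when counted over well-covered peaks. With at least 10 reads at the summit, the first 500 bp exceeded the interior 7.84, 8.10 and 13.2-fold (mean 9.70 ± 3.00) and the last 500 bp 2.73, 2.35 and 2.87-fold (mean 2.65 ± 0.272). Peaks of 1 read showed smaller ones. They were 2.13 and 2.14-fold denser in the first 500 bp than in the interior in replicates 2 and 3, and 0.901 and 1.07-fold as dense as in the last 500 bp. In replicate 3 the first 500 bp held only 11 of them, 0.576-fold the density of the next 500 bp. Replicate 1 has no such peaks, and the difference between the read classes was not tested.

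Within the first 500 bp, summits gathered a short way inside the gene. Their median distance from the annotated 5′ end was 124, 138 and 111.5 bp, and 72.2%, 65.3% and 77.9% lay within 200 bp. The densest 50-bp bin was the one from 50 to 100 bp in each list, with 829, 1442 and 788 summits per Mb. The first 50 bp had 327, 625 and 243 per Mb. The first bin was thus lower than the one after it in all 3 lists.

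**Figure D2:**
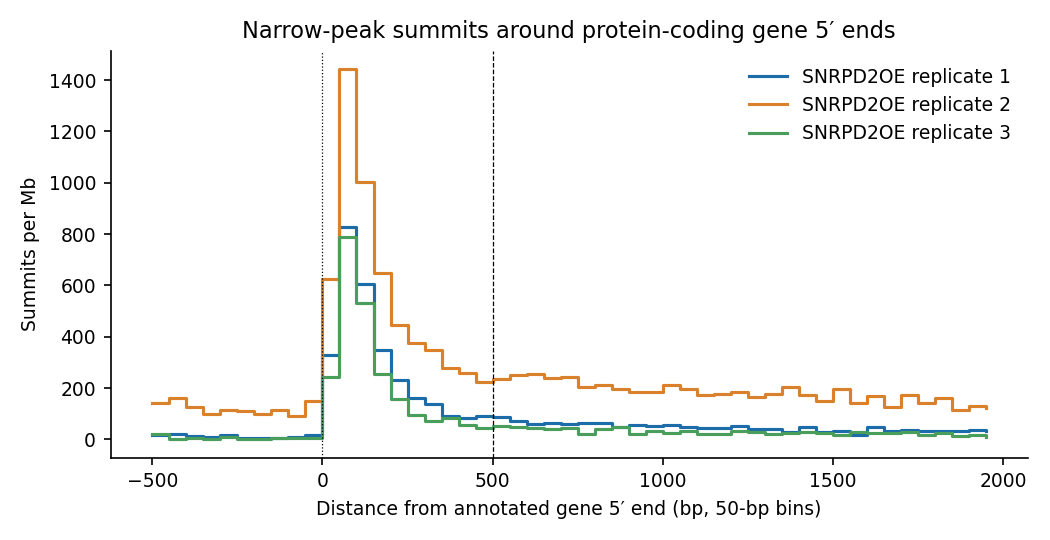
Narrow-peak summits per Mb in 50-bp bins from 500 bp upstream to 2000 bp inside the genes, 1 line per replicate, with the annotated 5′ end at 0 (dotted) and the 500-bp limit dashed. All 3 lines peak in the bin from 50 to 100 bp, at 829, 1442 and 788 per Mb, and are low upstream.

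Upstream sequence was nearly bare in replicates 1 and 3. The 500 bp before the 5′ end, where it lay outside all genes, had 11.6, 120 and 5.23 summits per Mb, from 53, 551 and 24 summits. The edge of the rule is not a break in the profile. From 450 to 500 bp there were 50, 124 and 24 summits, and from 500 to 550 bp, just outside the rule, 48, 132 and 28. Genes of 5 to 6 kb had 32, 58 and 18 members, and those of 4 to 5 kb, just too short, had 33, 61 and 29. Widths of 800 to 1000 bp occurred in 0, 0 and 6 members, and 0, 0 and 6 otherwise qualifying peaks were 1000 to 1200 bp wide.

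The members carried more reads than the interior peaks of the same genes. Their median was 7, 4 and 9 reads at the summit, against 4, 1 and 7 in the interior. At least 10 reads were found at 35.9%, 25.1% and 48.1% of members, against 20.2%, 5.85% and 27.1% of interior peaks. The difference was 15.7, 19.2 and 21.0 percentage points, a mean of 18.6 ± 2.71 (SD, n = 3; exact permutation p = 0.25). Windows of equal size came closer to the members. The share was 30.2%, 10.4% and 42.1% in the next 500 bp and 30.7%, 12.8% and 34.7% in the middle 500 bp. In the last 500 bp it was 34.2%, 15.4% and 44.3%, the nearest to the members in each list. Members with 10 or more reads lay in 550, 726 and 586 genes, or 4.88%, 6.45% and 5.20% of the 11264.

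**Figure D3:**
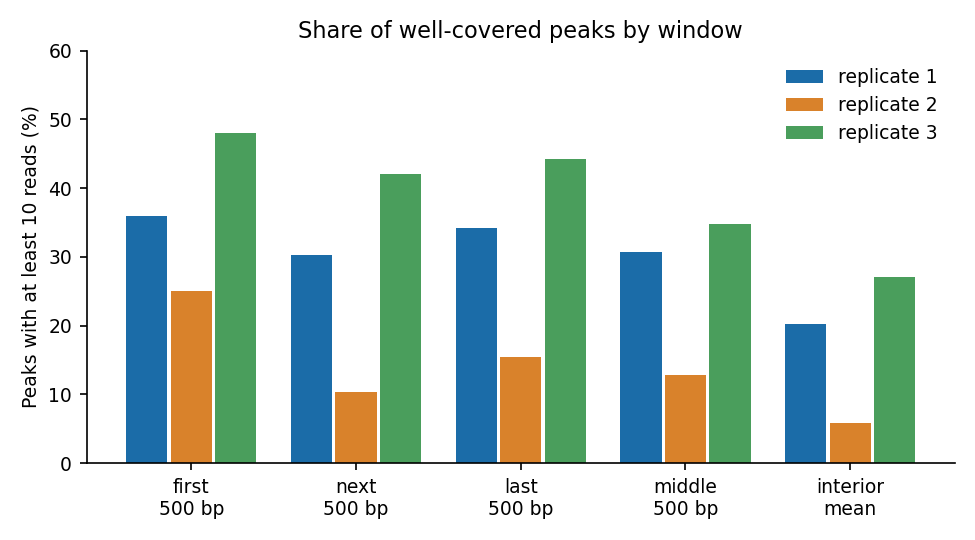
Share of peaks with at least 10 reads at the summit (percent, axis from 0) by window of the gene, 1 bar per replicate. The first 500 bp has the highest bar of each replicate, at 35.9%, 25.1% and 48.1%, against 20.2%, 5.85% and 27.1% in the interior.

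The caller's own background was higher under members than under the pooled interior peaks. Its median under the members was 0.351, 0.361 and 0.0936 in the caller's scaled units, against 0.117, 0.0722 and 0.0780 under interior peaks. Windows of equal size did not follow this in each list. In replicate 3 the background was 0.0975, 0.117 and 0.117 in the next, middle and last 500 bp, all above that of the members, and in replicate 1 it was 0.372 in the last 500 bp. Members that passed a −log10 q of 1.3, the caller's adjusted threshold of 0.05, numbered 105, 344 and 111. That was 6.73%, 11.3% and 8.91% of members, against 4.41%, 4.15% and 2.85% of interior peaks. The other members passed the caller's unadjusted p alone, which is at most 0.01 in each list. Width separated the groups poorly. The median was 81, 73 and 79 bp for members and 79, 40 and 71 bp for interior peaks, a difference of 14.3 ± 16.4 bp (exact permutation p = 0.25, n = 3) that came to 5 bp without replicate 2.

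A gene with a 5′ summit often had other peaks. An interior peak was present in 76.9%, 93.7% and 69.2% of genes with a member, against 42.9%, 78.5% and 25.2% of the other genes. Where a gene had both, the 5′ summit had more reads than the best interior peak in 443, 857 and 407 genes and fewer in 594, 1262 and 353. The 5′ summit was therefore the deeper of the pair in a minority of such genes in replicates 1 and 2 and in slightly more genes than not in replicate 3, leaving aside ties in 129, 483 and 66 genes. An interior offers many more peaks to choose the best from. In 343, 150 and 340 genes all summits counted here were at the 5′ end. Peaks wider than 1000 bp, which are most of those of replicate 3, and summits in more than 1 gene span were not counted. More RNA from a gene and more binding of it cannot be told apart in these lists.

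Part of the genes had 5′ summits in more than 1 list. Of the 3989 genes with a member in any list (35.4% of 11264), 2746 had one in 1 list, 989 in 2 lists and 254 in all 3 (2.25%). Replicates 1 and 2 shared 711 genes, 46.9% of those of replicate 1 and 25.6% of those of replicate 2. Replicates 1 and 3 shared 457 (30.1% and 38.3%), and replicates 2 and 3 shared 583 (21.0% and 48.9%). In the middle window the shared genes numbered 105, 30 and 46 for the same pairs, and 14 were in all 3 lists. The last 500 bp shared 266, 130 and 218 genes, and 83 were in all 3 lists. The share of a list's genes found again in another was 13.3 ± 5.41 percentage points higher for 5′ ends than for the middle window over the 6 ordered pairs, and 7.17 points without replicate 3. Against the last window the order varied, since 46.9% of the 5′ genes and 47.7% of the last-window genes of replicate 1 were found again in replicate 2. These shares depend on how many genes a window has in each list, and 5′ ends had the most. Divided by the share of all genes of the window that the other list held, the repeat was 1.90, 2.84 and 1.98-fold for 5′ ends in the pairs 1 and 2, 1 and 3, and 2 and 3. The same ratio was larger for the middle window, at 7.17, 10.5 and 5.41, and for the last window, at 2.78, 6.01 and 3.06. The ratio cannot exceed the inverse of the larger list's share of all genes of the window. In replicate 2 that share was 24.6% at 5′ ends, 6.08% in the middle window and 17.1% in the last. The ceiling was thus lower at 5′ ends, and the ratio cannot rank repetition between the windows.

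Summits of shared genes lay near each other. The median gap between the nearest members of a gene was 31, 26 and 24 bp for the pairs 1 and 2, 1 and 3, and 2 and 3, and 61.6%, 68.1% and 69.5% of genes had a gap of at most 50 bp. In the middle window the gaps were alike, with medians of 27, 29.5 and 14.5 bp. Over the 254 genes in all 3 lists, the strongest members spread over a median of 57.5 bp, and over at most 50 bp in 117 genes. Their median reads were 13, 13 and 12, against 5, 2 and 8 in genes with a member in that list alone. Reads at these 254 genes had a Spearman rho of 0.852, 0.857 and 0.865 between the lists, a description over genes that share the position of their windows and their RNA level in this line.

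The 12 genes listed first are those in all 3 lists with the highest mean rank of −log10 p, a choice made on these values, which are given as a description. SNRNP70, the U1 snRNP protein that contacts the Sm ring and recruits U1 to 5′ splice sites, had the most reads of the 12 in each list. It had 59, 52 and 53 reads in replicates 1, 2 and 3, at 142, 122 and 125 bp from the 5′ end. COIL, the scaffold protein of Cajal bodies, where snRNPs mature, had 12, 16 and 20 reads at 59, 58 and 57 bp. All 3 summits of COIL lay within 2 bp of each other. KPNA2, an importin alpha that carries proteins into the nucleus, had 38, 38 and 35 reads at 49, 57 and 56 bp. MYH9, the heavy chain of nonmuscle myosin IIA, had 21, 20 and 24 reads at 67, 62 and 61 bp. The best interior peaks had 54, 42 and 54 reads in SNRNP70, 19, 35 and 38 in KPNA2 and 26, 23 and 26 in MYH9. In COIL they had 8 and 4 reads in replicates 1 and 2, and replicate 3 had no interior peak.

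Other genes of the 12 had their summits farther in. GET3, the ATPase of the tail-anchored protein insertion pathway, had 26, 29 and 24 reads at 469, 444 and 469 bp. RefSeq lists a further start inside this gene, and the summits lay 78, 53 and 78 bp from it. LRPPRC, a stabiliser of mitochondrial mRNAs, had 29, 27 and 22 reads at 373, 363 and 356 bp, and 97, 87 and 80 bp from its nearest listed start. Measured from the nearest listed start, both genes thus had summits at the distances usual for the members. The remaining genes were ZNF346, AKR7A2, PPP1CC, DNAJB6, CLTC and SNX3, with 10 to 31 reads. Among the 12, COIL, AKR7A2, KPNA2 and DNAJB6 have 2, 2, 3 and 8 RefSeq pseudogenes named after them, and reads of near-identical copies cannot be told apart here.

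**Figure D4:**
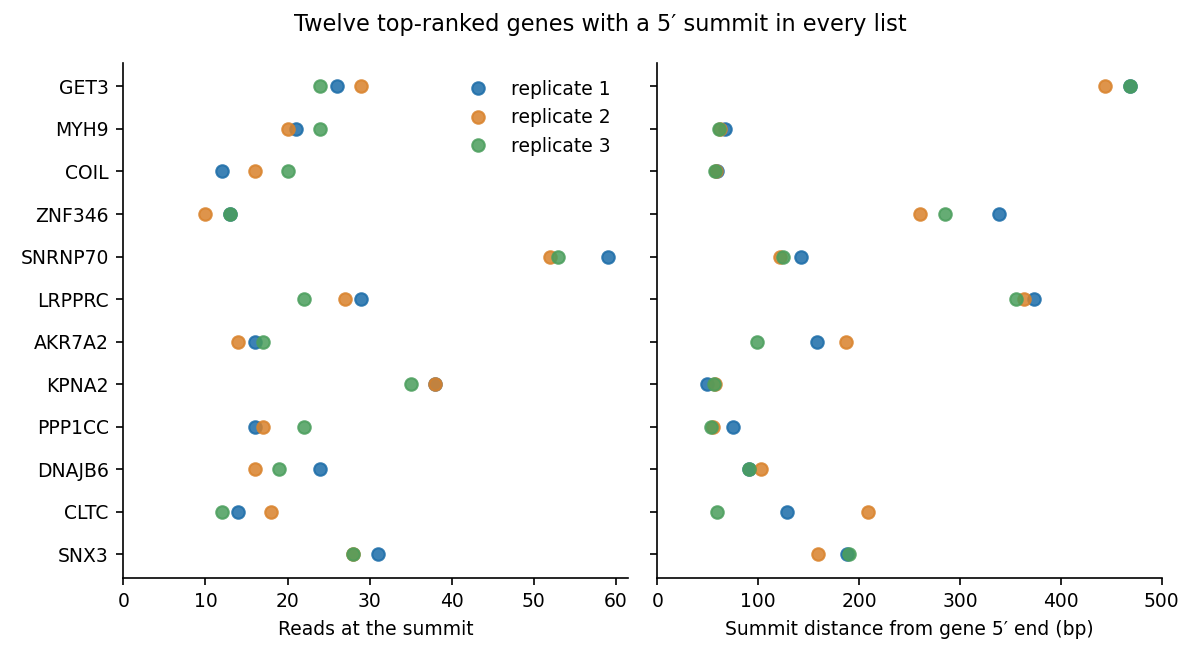
Reads at the summit (left) and summit distance from the gene's 5′ end in bp (right) for the 12 genes in all 3 lists with the highest mean rank of −log10 p, 1 point per replicate. SNRNP70 has 59, 52 and 53 reads, and GET3 and LRPPRC have their summits beyond 350 bp.

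Several of the strongest members of a list had no counterpart in another. The highest −log10 p in replicate 1 belonged to SNRNP70, ZRANB1, NDUFAF4 and PAK4, in replicate 2 to GET3, SFXN4, ESS2 and AMBRA1, and in replicate 3 to HDAC1, RFC3, NOL11 and FBL. NOL11, a factor of ribosomal RNA processing, had 35, 34 and 39 reads at 94, 92 and 94 bp. Its deposited fold was 2.44, 2.41 and 9.75, so nearly equal reads stood on unequal background. HDAC1, a histone deacetylase, had 37 reads in replicate 2 and 47 in replicate 3 and no member in replicate 1. Only its summit in replicate 3 was strong, with a fold of 11.6 and a −log10 p of 19.9, against 1.68 and 3.03 in replicate 2. FBL, the methyltransferase of box C/D snoRNPs, had a member in replicate 3 alone, with 27 reads at 52 bp, and SFXN4 in replicate 2 alone, with 19 reads.

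PUS7, a pseudouridine synthase, had 11 reads at 168 bp in replicate 1, no member in replicate 2 and 16 reads at 182 bp in replicate 3. Its −log10 p was 2.34 in replicate 1, near the caller's limit, and 9.14 in replicate 3. In replicate 2 its 12 peaks all lay elsewhere in the gene. The overexpressed gene, SNRPD2, is 4863 bp long and falls below the length limit. No peak of any list had its summit in its first 500 bp.

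Most of the gene lists, not only those of RNA processing and nuclear transport, were above the share of all genes in each replicate. The U2, cap and tissue-restricted lists were not. Averaged over the replicates, 45.6% of DNA replication genes and 33.3% of Sm ring and assembly genes had a 5′ summit. Among 28 genes of nucleoporins and nuclear transport, 10, 17 and 16 had one in replicates 1, 2 and 3 (35.7%, 60.7% and 57.1%), against 13.5%, 24.6% and 10.6% of all 11264 genes. In 7 of the 28 it was in all 3 lists, KPNA2 and the nucleoporin NUP88 (23, 16 and 15 reads) among them. Of 17 factors of U1 and the 5′ splice site, 5, 12 and 7 had a member and 4 had one in all 3 lists. TIA1, which aids U1 at weak 5′ splice sites, had 13, 10 and 11 reads. Of 15 genes of the Sm ring and its assembly, 6, 6 and 3 had one. CLNS1A, the assembly chaperone pICln, had 26, 24 and 27 reads there. Its −log10 p was only 2.08, 3.30 and 2.34, and its −log10 q was 0 in each replicate. Its best interior peaks had more reads, at 30, 27 and 28, so it is not an example of a strong 5′ summit. The lists were chosen with earlier results of these data known and were not tested.

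Factors that act further along splicing or at the cap were above the share of all genes in some replicates only. The U2 list was below the share of all genes in replicate 2 and the cap list in replicate 1. The 16 factors of U2 and the branch site had 4, 3 and 5 members, with SF1, the branch point binding protein, at 19, 26 and 17 reads. The 19 genes of cap binding and capping had 2, 7 and 5, of which EIF4G2, a translation initiation factor, was in all 3 lists with 24, 26 and 21 reads. The 10 pseudouridine synthases and H/ACA proteins had 4, 3 and 3 (40%, 30% and 30%). This was above the 13.5%, 24.6% and 10.6% of all genes in each replicate, though near that share in replicate 2. RPUSD3, a mitochondrial synthase, had 11, 12 and 10 reads. Its summits lay at 482, 55 and 46 bp, so that of replicate 1 is another position. Protein-coding snoRNA hosts had 5, 9 and 4 of 22 (22.7%, 40.9% and 18.2%), also above the share of all genes in each replicate. MYBBP1A of this list had 17 reads in each replicate.

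Genes of the dividing cell, transcription and chromatin had these counts, again untested. DNA replication genes had 9, 16 and 16 members of 30 (30%, 53.3% and 53.3%), and CDT1, which licenses origins, had 16, 14 and 8 reads. Genes of mitosis had 6, 8 and 14 of 26. PLK1, the mitotic kinase, had 23, 25 and 25 reads at 121, 297 and 351 bp, so its strongest summits differed in position between replicates. DNA damage genes had 8, 7 and 9 of 25, of which the 28.0% in replicate 2 is near the 24.6% of all genes, with FANCA and ERCC2 in all 3 lists at 6 to 10 reads. RNA polymerase II initiation and pausing genes had 8, 12 and 15 of 37, with SSRP1, a subunit of the histone chaperone FACT, at 16, 20 and 19 reads. Chromatin regulators had 4, 14 and 8 of 28, of which the 14.3% in replicate 1 is near the 13.5% of all genes, and CREBBP, an acetyltransferase, had 10, 15 and 4 reads.

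Ubiquitin ligases and proteases had 11, 11 and 5 of 26 (42.3%, 42.3% and 19.2%). Nuclear oxidative phosphorylation genes had 7, 11 and 6 of 23 (30.4%, 47.8% and 26.1%). All genes stood at 13.5%, 24.6% and 10.6%. No gene of either list was in all 3 replicates, but only 2.25% of all genes were, so this absence says little in lists of this size. Genes restricted to other tissues were at the opposite end. Of 21 such genes, 0, 1 and 0 had a member, where a count of 0 allows a share of up to 14.3%. The exception was ACTN2, a sarcomeric actinin, with 3 reads in replicate 2. The order of the lists differed between replicates (the plot of shares by gene list).

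**Figure D5:**
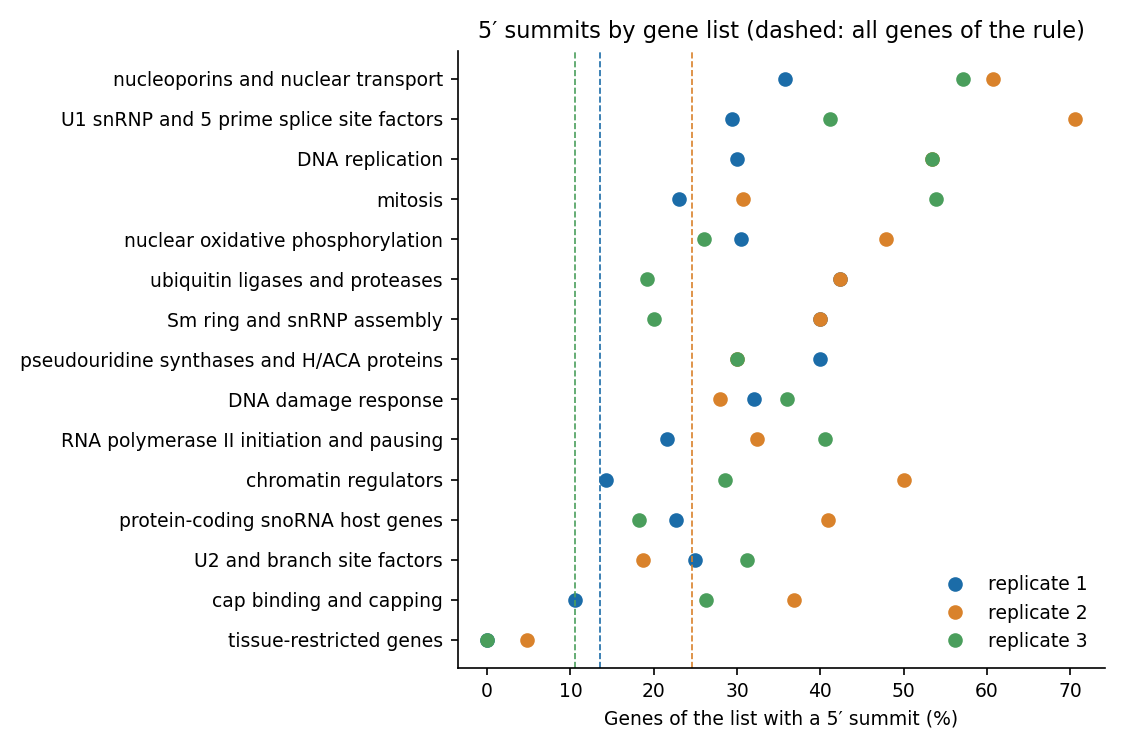
Percent of the genes of each list with a 5′ summit, 1 point per replicate, with the share of all 11264 genes as a dashed line in the replicate's colour (13.5%, 24.6% and 10.6%). Nucleoporin and nuclear transport genes lie right of the lines in all 3 replicates (35.7%, 60.7% and 57.1%), and tissue-restricted genes lie left of them.

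The promoters of genes with a member were richer in G and C. Over the 250 bases upstream of the 5′ end, the median GC content was 66.8%, 66.4% and 64.8% in genes with a member, against 62.8%, 62.0% and 63.2% in the other genes. The difference was 4.0, 4.4 and 1.6 percentage points, a mean of 3.33 ± 1.51 (exact permutation p = 0.25, n = 3). The median number of CpG was 23, 23 and 22, against 18, 17 and 18. TATAAA was found upstream in 2.36%, 2.81% and 3.49% of genes with a member, against 5.28%, 5.58% and 5.03% of the others. A promoter sequence was matched for 95.1%, 92.3% and 96.1% of genes with a member and for 85.2%, 84.7% and 85.4% of the others, so the unmatched genes are not evenly spread.

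Genes with a member more often faced another gene. A start on the opposite strand lay within 1 kb upstream in 25.9%, 25.1% and 29.7% of them, against 19.6%, 19.0% and 19.4% of the other genes, a difference of 7.54 ± 2.37 percentage points (exact permutation p = 0.25, n = 3). Pseudogenes named after the gene were listed for 19.4%, 16.8% and 25.1% of genes with a member, against 11.9%, 11.7% and 11.5%. Several starts were listed less often, in 21.7%, 23.9% and 18.9%, against 28.5%, 28.8% and 28.6%. Gene length showed no one direction, with medians of 33.8, 39.2 and 32.6 kb in genes with a member and 34.3, 32.9 and 34.7 kb in the others.

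Short motifs gave small differences, with no allowance for base composition. The median GC content of the first 50 bases of the gene was 70%, 68% and 68% in genes with a member, against 64%, 64% and 66% in the others. In the first 50 bases of the gene on its sense strand, TNTAA or TNTAG, the consensus that PUS7 modifies at the U before its A, were found in 7.14%, 7.18% and 7.33% of genes with a member, against 9.90%, 10.3% and 9.77% of the others and 15.1% of all promoters of the table. GTAAG or GTGAG, which resemble a 5′ splice site, were found in 8.52%, 9.84% and 10.1%, against 9.97%, 9.72% and 9.70%, and 9.89% of all promoters. The sense-strand Sm site spelled ATTTTTG was in 0.139%, 0.0390% and 0.0873% of genes with a member (2, 1 and 1 genes), against 0.144%, 0.181% and 0.151% of the others and 0.273% of all promoters. Counts of 1 or 2 genes allow no comparison. The members' summits mostly lay beyond these 50 bases, which is as far as the sequences reach into a gene, so the letters under the summits were not read.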

How the data were processed

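Peak lists of 3 SNRPD2OE RIP-seq samples were used, with groups taken from the genotype in the labels. The build was GRCh38 and the tools were MACS2 2.2.9.1, STAR 2.7.10b and cutadapt 4.2, per the submitters' processing notes. Caller options, background library and duplicate treatment were not given in the sources used here. Peaks numbered before the first listed one of each list were not analysed here. The deposited score, fold (a ratio of scaled pileup plus 1 over background plus 1), −log10 p-value and −log10 q-value of a peak are the authors' own and describe peaks within a list only. Other deposited columns give starts, ends and summit offsets.

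Reads at a summit were recovered as the whole number whose Poisson tail gave the deposited −log10 p-value within 0.001, with 1 read counting 0.599, 1 and 0.254 in the scaled pileups of replicates 1, 2 and 3. This left 0, 0 and 3 peaks unsolved. Gene spans came from a RefSeq table (GRCh38.p14), and strand and promoters from its promoter sequences, which reach 250 bases upstream and 50 inside. Exons and introns were not used. Interior densities were averaged over genes, each weighted by its bases in the first 500 bp. Python 3.11.15, numpy 2.4.6, pandas 2.3.3 and scipy 1.17.1 were used. The steps were tested on simulated data.

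Members and the 15 gene lists were chosen with earlier results of these data known. Genes were named by rule: the 12 genes in all 3 lists with the highest mean percentile of −log10 p, the 4 with the highest −log10 p in each list, up to 2 from each gene list, and SNRPD2 and PUS7; not all are described. The position profile, read classes, within-gene comparison, listed inner starts, motifs, TATAAA, CpG, pseudogenes, repeated reads and the weighting of the interior were added after the files were seen. Alternatives were other window sizes, widths, gene lengths, read and q thresholds, and leaving out each replicate.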

Additional observations from a re-analysis of the deposited data

How the results depend on the processing

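No value of the 83 alternatives reversed. No sign-flip test over 3 samples can give a p below 0.25, so no side of a threshold could change, and this says nothing about stability. The repeat of genes between lists, as 5′ ends minus the middle window with no allowance for the number of genes in each, was 13.3 percentage points and 7.17 without replicate 3 (7.17 to 17.3 over the replicates left out). Of 45 alternative values of the density folds, 10 moved by more than the SD between replicates on the log2 scale. As geometric means, the folds of the first 500 bp were 6.31 over the interior, 4.11 over the next, 6.60 over the middle and 2.15 over the last 500 bp. Windows of 1000 bp gave 4.01, 3.92, 4.18 and 1.56, windows of 250 bp 9.87, 4.06, 10.5 and 3.38, and peaks with a −log10 q of at least 1.3 gave 14.3, 7.09, 14.5 and 5.28. Leaving out a replicate gave 5.17 to 7.91, 3.43 to 5.22, 5.52 to 8.10 and 1.94 to 2.62. Weighting interiors by length, added after seeing the data, gave 13.0 over the interior. The excess of peaks with at least 10 reads was 16.8 to 20.1 points, the GC difference 2.8 to 4.2 points, and the width difference 5 bp (without replicate 2) to 20.5 bp. Genes in all 3 lists numbered 193 with a 250-bp window and 324 with no width limit, against 254. No paired analysis was possible because the control samples, which share replicate numbers with the SNRPD2OE samples, were not analysed here. Peaks of replicate 3 wider than 1000 bp, all but 24.3%, were left out, and depth limits counts in peaks of 1 read.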

Other observations

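Summits also gathered after starts that RefSeq lists inside genes, which was looked at once the data were known. The 500 bp after 4740 such starts in 3050 genes, each at least 1500 bp from the gene's 5′ end, had 139, 351 and 68.6 summits per Mb in replicates 1, 2 and 3, against 28.2, 116 and 12.6 per Mb in the rest of the same interiors. The folds were 4.93, 3.03 and 5.45, and no test was made. The first 500 bp of the same genes had 156, 413 and 73.0 per Mb, so density after inner starts came close to that at the 5′ ends of these genes. Of the members that lay 200 to 500 bp from the 5′ end (434, 1055 and 275), 18.2%, 15.5% and 26.2% had a closer listed start. The 5′ ends used here are the outermost ones of the annotation, and which start these cells use was not tested.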
